A study of Mus musculus with 18 samples.

Results

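The 8 genes described here, Ccr1, Ccr2, Ccr3, Ccr4, Ccr6, Ccr8, Ccr9 and Ccr10, encode CC chemokine receptors, and they were found by symbol among the 55487 gene IDs of each table. They were taken from a given list of receptor names and not by a rule on their values. The list was chosen with earlier results of these data known. Expression was measured by RNA sequencing of poly(A) RNA in regulatory T (Treg) cells, the CD4+ T cells that carry the transcription factor Foxp3 and restrain immune responses. The cells came fresh from wild-type mice that had received no treatment, and the 6 groups are peripheral blood and 5 organs (bone marrow, spleen, lymph node, lung and liver), each with 3 libraries. The age of the mice, the sorting gates and the pooling of animals are not given in the sources used here. Nothing in them says that the libraries of a group came from separate mice, so the p-values below measure the spread between these libraries, which may be technical. Values are TPM, a share of a library's transcripts that is corrected for transcript length.

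CC chemokine receptors are G protein-coupled receptors on leukocytes that bind small secreted proteins, the CC chemokines. Binding activates inhibitory G proteins of the Gi class, and the cell then adheres and moves up the ligand gradient. In T cells the set of receptors is part of the address by which a cell enters and stays in an organ: Ccr4, Ccr8 and Ccr10 are known for skin and other barrier tissues, Ccr9 for the small intestine, Ccr6 for mucosa and lymphoid follicles, and Ccr1, Ccr2 and Ccr3 for inflamed tissue. Several of them are also carried by other leukocytes, among them Ccr1 and Ccr2 by monocytes, Ccr3 by eosinophils, Ccr6 by B cells, Ccr9 by plasmacytoid dendritic cells and Ccr10 by plasma cells.

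Ccr1, Ccr2, Ccr3, Ccr4, Ccr8 and Ccr9 lie on mouse chromosome 9 (GENCODE M21 on GRCm38, the same assembly as the mm10 named in the submitters' processing notes): Ccr4 at chr9:114490316-114504916 on the minus strand, Ccr8 at chr9:120092114-120094906 on the plus strand, Ccr9 at chr9:123678439-123784330 on the plus strand, Ccr1 at chr9:123962124-123968692 on the minus strand, Ccr3 at chr9:124021972-124031689 on the plus strand and Ccr2 at chr9:124101950-124113557 on the plus strand. Ccr6 lies at chr17:8236043-8257141 on the plus strand and Ccr10 at chr11:101172997-101175443 on the minus strand. Ccr9 overlaps Slc6a20a, Lztfl1, Gm10052 and AC165425.1 on the opposite strand. It also overlaps Gm17200 and Gm17020 on the same strand, from which strand alone does not tell it apart. Ccr10 overlaps Cntnap1 on the opposite strand. The library kit marks strand, but whether strand was used in counting is not given in the sources used here, so reads of these 2 receptors and of their neighbours may not be fully separated. Of the 50-base stretches of each receptor's transcripts, 1.91% in Ccr2, 2.14% in Ccr9 and 0.465% in Ccr4 also occur in another gene, and none in the other 5.

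The 250 bases before the RefSeq start (GRCm38.p6) are printed for Ccr4 and Ccr8, which were low together in blood, and for Ccr1 and Ccr2, which were high there. The windows are chr9:114496545-114496794 on the minus strand for Ccr4, chr9:120091883-120092132 on the plus strand for Ccr8, chr9:123968693-123968942 on the minus strand for Ccr1 and chr9:124101933-124102182 on the plus strand for Ccr2. Capitals mark matches, on either strand, to the AP-1 and BATF motif TGANTCA, the STAT motif TTCNNNGAA or the GATA motif GATAA.
Ccr4: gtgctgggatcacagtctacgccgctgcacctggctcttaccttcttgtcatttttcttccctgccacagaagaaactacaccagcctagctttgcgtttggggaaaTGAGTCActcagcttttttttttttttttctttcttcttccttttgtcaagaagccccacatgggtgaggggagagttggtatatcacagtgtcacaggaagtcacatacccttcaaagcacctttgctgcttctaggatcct
Ccr8: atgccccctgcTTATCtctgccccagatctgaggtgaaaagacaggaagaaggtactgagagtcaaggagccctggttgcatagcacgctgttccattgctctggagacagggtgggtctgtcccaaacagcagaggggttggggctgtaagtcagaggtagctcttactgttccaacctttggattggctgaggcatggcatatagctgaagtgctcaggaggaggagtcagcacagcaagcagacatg
Ccr1: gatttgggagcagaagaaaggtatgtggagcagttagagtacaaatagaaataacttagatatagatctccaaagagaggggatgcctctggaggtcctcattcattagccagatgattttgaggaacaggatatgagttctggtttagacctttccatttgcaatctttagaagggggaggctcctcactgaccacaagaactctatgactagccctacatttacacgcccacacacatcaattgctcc
Ccr2: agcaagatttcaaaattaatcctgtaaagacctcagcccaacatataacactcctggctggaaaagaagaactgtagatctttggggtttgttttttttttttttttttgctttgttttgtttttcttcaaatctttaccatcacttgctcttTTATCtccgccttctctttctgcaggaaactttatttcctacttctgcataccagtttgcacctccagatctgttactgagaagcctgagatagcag
Ccr4 held 1 AP-1 and BATF match, which starts 143 bases before the start site, and Ccr8 held none. Ccr8 and Ccr2 each held 1 GATA match and Ccr1 none of the 3 motifs. Of 32851 RefSeq promoter windows of this length, 6.7% held the AP-1 and BATF motif, 7.0% the STAT motif and 22.6% the GATA motif. In the windows of the other members, Ccr3 held 1 AP-1 and BATF match and 1 GATA match, Ccr6 held 2 STAT matches in one of its 2 windows and 1 GATA match in the other, and Ccr9 held none. A match describes letters only. By the GENCODE coordinates above, the Ccr4 window lies inside the gene, as do most of the Ccr2 window and the end of the Ccr8 window. For these genes the RefSeq start thus lies inside the GENCODE gene. Ccr10 was not matched in the table, which had 7 of the 8 members.

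Foxp3 was between 85.4 and 240 TPM and Cd4 between 150 and 411 TPM in every library, lowest in blood. Blood and bone marrow libraries stood apart: neutrophil markers (11 genes) summed to 43472 to 43907 TPM in bone marrow and 17564 to 18715 in blood, against 15.9 to 707 in the other 4 organs. Platelet markers (7 genes) summed to 3035 to 3131 TPM in blood and at most 81.8 elsewhere, markers of CD8 T and NK cells (7) to 477 to 540 and at most 79.5, and erythroid genes (5) to 10931 to 11969 in liver and at most 6482 elsewhere. The part of these cells in the receptor levels was not tested. The 20 T cell reference genes summed to 3371 to 3467 TPM in blood and 5211 to 7978 elsewhere. TPM tables carry no read depth, but the spacing of low values gave what 1 read was worth for a transcript of 1 kb: on average 0.379 TPM in liver, the least deeply sampled organ, 0.234 in lung, 0.158 in spleen, 0.115 in bone marrow, and 0.0872 and 0.0826 in lymph node and blood. With this spacing 73.0% to 92.4% of low values in a library lay within 0.1 of a whole read, and the approximate reads given below, for the 4 receptors with 1 annotated transcript, rest on it. In such bulk libraries, fewer cells that carry a transcript and less of it per cell cannot be told apart.

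Every one of the 8 receptors differed among the 6 organs in the moderated F test (limma on log2(TPM + 1), Benjamini-Hochberg adjusted over 16694 genes, call at an adjusted p under 0.05), with adjusted p from 7.34e-14 for Ccr4 to 0.000413 for Ccr6. The background is high, since 68% of all genes tested were called. The 8 also passed when blood and bone marrow were left out and 4 organs compared, an alternative chosen after seeing the data, with adjusted p from 2.82e-08 for Ccr2 to 0.0123 for Ccr6 (48.1% of all genes called). All 8 passed the filter on low values, a mean of 1 TPM in at least 1 organ.

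**Figure D1:**
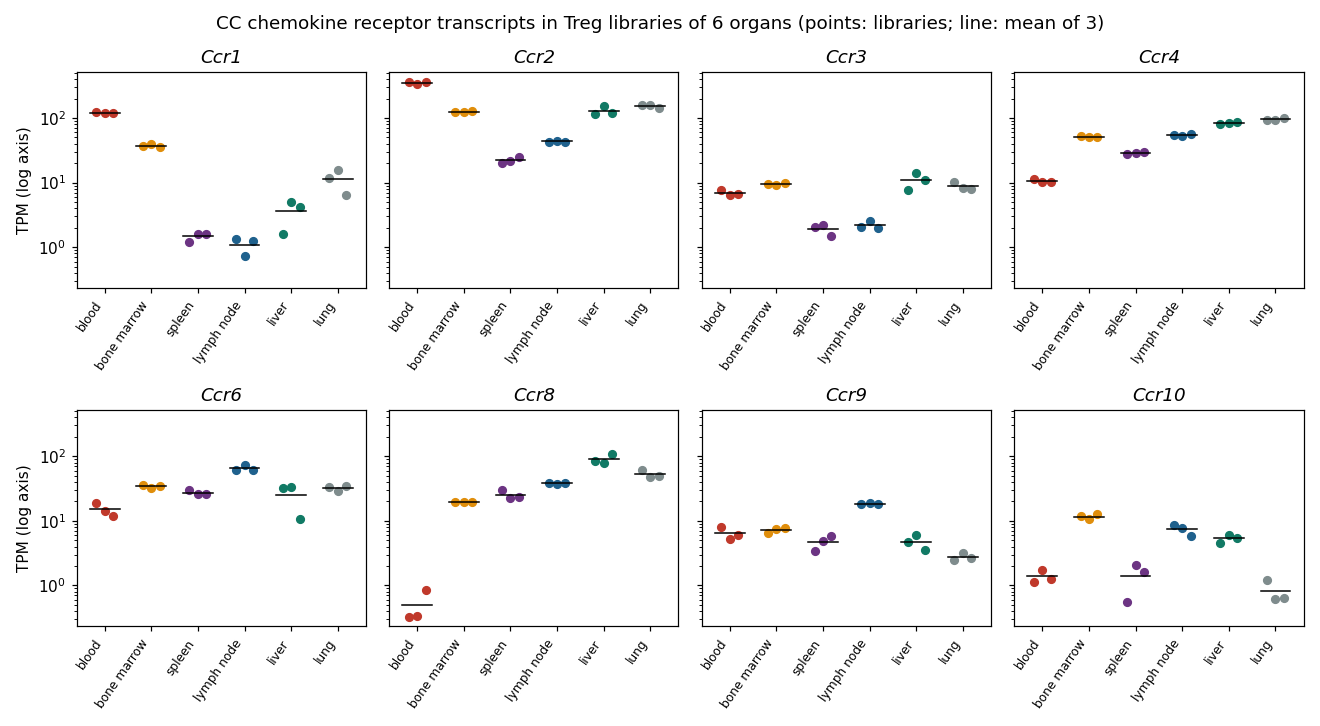
TPM (log axis) of the 8 receptors in each of the 18 libraries, by organ, with the mean of 3 as a line. Ccr1 and Ccr2 were highest in blood, Ccr8 and Ccr4 lowest there, Ccr6 and Ccr9 highest in lymph node and Ccr10 in bone marrow.

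Both the total and the mix of receptors varied between organs. Summed over the 8 genes, the level was 516 ± 19.8 TPM (SD, n = 3) in blood, 360 ± 16.0 in lung, 356 ± 24.5 in liver, 296 ± 3.23 in bone marrow, 231 ± 6.31 in lymph node and 114 ± 3.00 in spleen. Ccr2 made up 68.7% ± 1.21 of the sum in blood and Ccr1 another 23.4% ± 0.931. In spleen the largest shares were Ccr4 with 25.6% ± 1.43, Ccr6 with 24.2% ± 1.99 and Ccr8 with 22.3% ± 3.16. Lymph node had Ccr6 first with 28.2% ± 2.02, while Ccr2 was first in lung (42.9% ± 1.78), bone marrow (42.0% ± 0.342) and liver (36.5% ± 3.53).

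**Figure D2:**
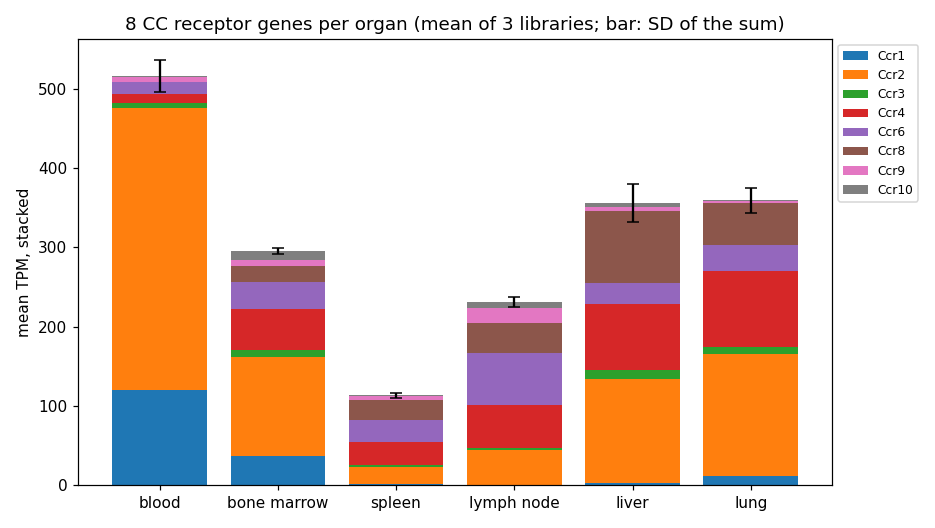
Mean TPM of the 8 receptors stacked by organ (3 libraries each), with the SD of the sum as a black bar. Blood had the highest sum, 516 TPM, nearly all of it Ccr2 and Ccr1, and spleen the lowest, 114 TPM.

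Ccr1, a receptor for Ccl3 and Ccl5 that is prominent on monocytes and neutrophils, had a mean in blood 111 times that in lymph node, and 249 times with T cell scaling. It was at 123, 122 and 118 TPM in the blood libraries and at 36.7, 39.1 and 35.5 TPM in bone marrow. Lung had 11.7, 15.7 and 6.49 TPM and liver 1.59, 4.99 and 4.22 TPM. Spleen had 1.21, 1.61 and 1.62 TPM and lymph node 1.33, 0.72 and 1.23 TPM, which is about 19 to 28 and 23 to 41 reads. Blood, bone marrow and lung did not overlap with each other or with the rest, while liver overlapped with spleen, and spleen with lymph node. Blood exceeded bone marrow by 1.68 (log2(TPM + 1) difference, SE 0.30, adjusted p = 0.000371) and lymph node by 5.88 (SE 0.30, adjusted p = 2.01e-10). Liver and spleen differed by 0.81 (SE 0.30, adjusted p = 0.0495), a call lost in 15 of 18 fits that left out 1 library (adjusted p up to 0.177).

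Ccr2, the receptor for Ccl2 that lets monocytes leave the marrow and also marks activated and tissue Treg cells, was the most abundant of the 8 in every organ but spleen and lymph node. Its level was 366, 337 and 362 TPM in blood. Lung had 162, 160 and 141 TPM, liver 116, 155 and 120 TPM and bone marrow 124, 122 and 127 TPM. Lymph node had 43.3, 44.8 and 42.9 TPM and spleen 20, 21.8 and 24.6 TPM. Blood stood above all others, lymph node and spleen stood below, and the 3 organs between overlapped in part. Blood exceeded lung, the next in order, by 1.20 (SE 0.10, adjusted p = 8.5e-08), and lymph node exceeded spleen by 0.95 (SE 0.10, adjusted p = 1.19e-05). Lung and liver (difference 0.25, 95% interval 0.03 to 0.46, adjusted p = 0.0698) and liver and bone marrow (0.06, interval -0.16 to 0.27, adjusted p = 0.707) were not told apart. Scaled to the T cell reference genes, lung exceeded liver by 0.55 (adjusted p = 0.000504) and liver fell below bone marrow by 0.30 (adjusted p = 0.0249), so the order of these 2 depends on the scaling.

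Markers of monocytes and macrophages moved with Ccr1 and Ccr2 in part. The 10 markers summed to 8668 to 8876 TPM in the blood libraries, 4464 to 4554 in those of bone marrow and 1432 to 1552 in those of lung. Spleen had 205 to 238 TPM, liver 59.7 to 95.4 and lymph node 36.9 to 46.7, and none was at 0 in all 3 libraries of an organ. All 10 were higher in blood than in spleen, lymph node and liver (20.1%, 16.4% and 23.3% of all genes). Against bone marrow 7 of the 10 were higher in blood and 1 lower (13% and 18.8% of all genes). Against lung 8 were higher and 1 lower (26.4% and 17.3%). The order of Ccr1 over blood, bone marrow and lung was that of the summed markers. Liver and spleen, which overlapped in Ccr1 (means of 3.6 and 1.48 TPM), did not follow it. The sum of the 11 neutrophil markers ran opposite to Ccr1 between bone marrow (43724 TPM) and blood (18182 TPM). Of the 11, 7 were lower in blood than in bone marrow (18.8% of all genes) and 2 higher (13%). The part of either cell type in the Ccr1 level was not tested. For Ccr2 the orders also differed. Ccr2 was at 130 ± 21.6 TPM in liver, where Csf1r, the receptor that defines the monocyte and macrophage lineage, was at 3.32 ± 0.783 TPM, and at 124 ± 2.37 TPM in bone marrow with Csf1r at 24.8 ± 0.524 TPM. Lymph node held more Ccr2 than spleen with Csf1r at 0.297 ± 0.0850 TPM against 12.4 ± 4.64 TPM. Ccr2 per 100 TPM of the marker sum was 177 in liver and 107 in lymph node, against 10.2 in spleen and lung, 4.06 in blood and 2.76 in bone marrow.

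Ccr3, the eotaxin receptor of eosinophils, was low throughout and fell into a higher and a lower set of organs. Liver had 7.82, 13.9 and 10.8 TPM, bone marrow 9.47, 9.25 and 9.96 TPM, lung 10.1, 8.35 and 7.94 TPM and blood 7.56, 6.42 and 6.58 TPM. Lymph node had 2.03, 2.55 and 1.98 TPM and spleen 2.07, 2.24 and 1.48 TPM, about 30 to 96 reads. No library of the first 4 organs overlapped with these. Blood exceeded lymph node by 1.30 (SE 0.20, adjusted p = 6.53e-05) and spleen by 1.43 (SE 0.20, adjusted p = 2.72e-05), and liver exceeded spleen by 1.99 (SE 0.20, adjusted p = 1.69e-06). Neighbours within the higher set did not pass the test (adjusted p from 0.221 to 0.678), nor did lymph node against spleen (0.13, interval of spleen minus lymph node -0.55 to 0.29, adjusted p = 0.8). Blood lay below liver by 0.56 (SE 0.20, adjusted p = 0.0331), but with T cell scaling it lay above by 0.31 (adjusted p = 0.183). The 8 eosinophil markers summed to 290 to 305 TPM in bone marrow, 214 to 237 in lung, 158 to 162 in blood, 6.72 to 14.7 in spleen, 0.56 to 7.32 in liver and 0.51 to 2.00 in lymph node. In liver, where the mean of Ccr3 was highest before scaling, Epx, Siglecf, Prg3, Ear1 and Ear6 were at 0 in all 3 libraries. In lung Epx, Prg3 and Ear6 were at 0 too, and Ear2 (165 ± 3.82 TPM) and Ear1 (51.0 ± 5.70 TPM) made up most of the sum. Basophil and mast cell markers (6 genes) summed to at most 0.55 TPM in liver. The part of eosinophil, basophil or mast cell RNA in Ccr3 was not tested for any organ.

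**Figure D3:**
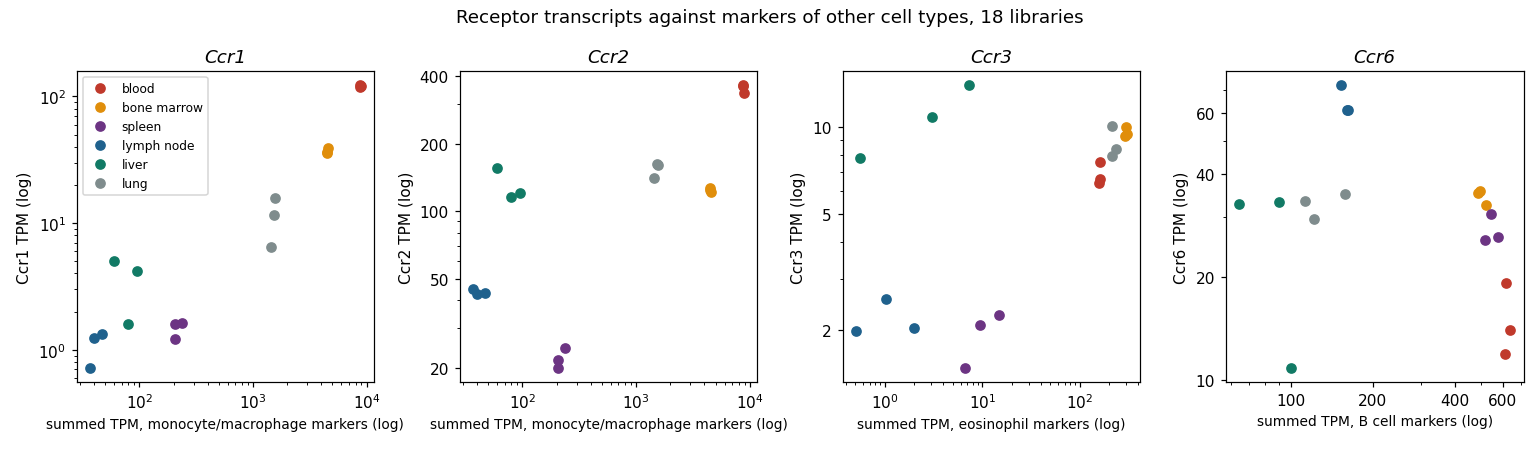
TPM of Ccr1, Ccr2, Ccr3 and Ccr6 in the 18 libraries against the summed TPM of markers of monocytes and macrophages, eosinophils or B cells (both axes log). Liver holds Ccr2 at 116 to 155 TPM and Ccr3 at 7.82 to 13.9 TPM with few such markers, and lymph node has the highest Ccr6 with fewer B cell markers than spleen.

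Ccr4, the receptor for Ccl17 and Ccl22 and a common receptor of Treg cells that home to skin and lung, was highest in lung and lowest in blood, with little spread between libraries. Lung had 94.1, 94.4 and 101 TPM, liver 81.9, 83.6 and 87.1 TPM and lymph node 54.8, 53.4 and 56.1 TPM. Bone marrow had 52.2, 51.7 and 51.6 TPM, spleen 27.6, 29.3 and 30.3 TPM and blood 11.2, 10.4 and 10.3 TPM. No 2 neighbours in this order overlapped. Blood fell below spleen, the next in order, by 1.37 (SE 0.07, adjusted p = 3.67e-10) and below lung by 3.07 (SE 0.07, adjusted p = 2.83e-14). Liver exceeded lymph node by 0.61 (SE 0.07, adjusted p = 9.81e-06) and bone marrow exceeded spleen by 0.81 (SE 0.07, adjusted p = 3.12e-07). Lymph node and bone marrow were not told apart (0.08, interval of bone marrow minus lymph node -0.23 to 0.07, adjusted p = 0.543), and with T cell scaling bone marrow stood above by 0.47 (adjusted p = 9.42e-05). The lung and liver difference of 0.19 (SE 0.07, adjusted p = 0.0449) was lost in 14 of 18 fits that left out 1 library (adjusted p up to 0.119).

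Ccr8, the receptor for Ccl1 and Ccl8 and a marker of highly activated tissue and tumour Treg cells, was nearly lacking in blood. The blood libraries had 0.33, 0.34 and 0.85 TPM, about 4, 4 and 9 reads. Liver had 85.4, 79.8 and 109 TPM, about 236, 181 and 282 reads from libraries of lower depth. Lung had 60.7, 48.1 and 49.4 TPM and lymph node 38.5, 37.4 and 38.4 TPM. Spleen had 29.95, 22.6 and 23.7 TPM and bone marrow 19.4, 19.6 and 19.6 TPM. Blood lay far below every other library, and no neighbours in the order overlapped. The liver mean was 180 times the blood mean in TPM, the widest range of the 8 receptors, and 92.2 times with T cell scaling, when Ccr1 had the widest. Blood fell below bone marrow, its nearest neighbour, by 3.79 on the log2(TPM + 1) scale (SE 0.16, adjusted p = 6.79e-11). That scale understates a change from so low a level: with a pseudocount of 0.1 TPM the bone marrow difference was larger and with 5 TPM smaller, between -5.12 and -2.16 over all alternatives. Liver exceeded lung by 0.78 (SE 0.16, adjusted p = 0.00114), and by 0.48 (adjusted p = 0.0462) with T cell scaling. That call was lost with array weights (adjusted p = 0.0716). Lung exceeded lymph node by 0.45 (adjusted p = 0.0299), a call lost in 4 of 18 fits that left out 1 library, and lymph node exceeded spleen by 0.58 (adjusted p = 0.0211), a call lost in 5. Spleen and bone marrow did not pass (0.35, adjusted p = 0.126).

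Ccr4 and Ccr8 were the 2 receptors lower in blood in all 5 contrasts, as were 3.44% of all genes tested. The sum of the T cell reference genes was also lower in blood, at 3417 ± 47.9 TPM against 6546 ± 115 TPM in liver. Scaled to those genes, Ccr4 was still lower in blood in all 5 contrasts, by 0.53 (spleen) to 2.45 (lung), and Ccr8 by 3.62 (bone marrow) to 5.43 (liver). The pair did not keep 1 ratio. Ccr4 per Ccr8 was 0.935 ± 0.125 in liver, 1.17 ± 0.211 in spleen, 1.44 ± 0.02 in lymph node, 1.85 ± 0.264 in lung and 2.65 ± 0.0350 in bone marrow, and 12.1 to 33.9 in the blood libraries.

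Ccr6, the receptor for Ccl20 on B cells, type 17 helper cells and part of the Treg cells, was highest in lymph node and otherwise the most even of the 8, with a 4.33-fold range of means. Lymph node had 61.3, 72.6 and 61.5 TPM. Bone marrow had 35.6, 32.5 and 35.1 TPM, lung 33.2, 29.5 and 34.8 TPM and spleen 30.5, 25.7 and 26.2 TPM. Liver had 32.7, 33.1 and 10.9 TPM and blood 19.2, 13.98 and 11.95 TPM. Lymph node stood above all other libraries, and the third liver library lay below every other library of the series. Lymph node exceeded bone marrow by 0.90 (SE 0.29, adjusted p = 0.038), a call lost in 6 of 18 fits that left out 1 library, and exceeded liver by 1.47 (SE 0.29, adjusted p = 0.00135). Blood fell below lymph node by 2.06 (SE 0.29, adjusted p = 3.56e-05), and below bone marrow (1.17, adjusted p = 0.00628), lung (1.09, adjusted p = 0.00702) and spleen (0.85, adjusted p = 0.0348) by less. With T cell scaling only the lymph node difference of these 4 passed (lower in blood by 0.94, adjusted p = 0.0104), and the spleen difference was 0.00 (adjusted p = 1). With that scaling liver, not blood, was also the lowest organ. Blood and liver were not told apart (0.60, interval of blood minus liver -1.23 to 0.03, adjusted p = 0.125). Without the third liver library blood was lower by 1.10 (adjusted p = 5.22e-05). The 8 B cell markers summed to 611 to 637 TPM in blood, 515 to 575 in spleen, 487 to 522 in bone marrow, 152 to 162 in lymph node, 112 to 158 in lung and 64.5 to 100 in liver, none of them at 0. The sum was thus larger in blood, bone marrow and spleen than in lymph node, where Ccr6 was highest under both scalings, and its part in the Ccr6 levels was not tested.

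Ccr9, the Ccl25 receptor of T cells bound for the small intestine, stood out in lymph node. The lymph node libraries had 18.5, 18.9 and 18.4 TPM. Bone marrow had 6.52, 7.61 and 7.64 TPM, blood 8.12, 5.33 and 5.94 TPM and spleen 3.41, 4.92 and 5.86 TPM. Liver had 4.67, 5.95 and 3.51 TPM and lung 2.47, 3.18 and 2.62 TPM. Lymph node overlapped with no other organ, and the middle 4 overlapped in a chain. Lymph node exceeded bone marrow, the next in order, by 1.25 (SE 0.21, adjusted p = 0.000281) and lung by 2.38 (SE 0.21, adjusted p = 1.7e-07). The 3 steps from bone marrow to blood, spleen and liver did not pass the test (adjusted p from 0.176 to 1). Lung lay below liver by 0.59 (SE 0.21, adjusted p = 0.0402), a call lost in 10 of 18 fits that left out 1 library. Blood was lower than lymph node by 1.41 (SE 0.21, adjusted p = 5.4e-05) and higher than lung by 0.98 (SE 0.21, adjusted p = 0.00123). With T cell scaling the first became 0.35 (adjusted p = 0.163), and blood also exceeded spleen by 1.17 (adjusted p = 0.000147) and liver by 1.23 (adjusted p = 7.39e-05). The 5 plasmacytoid dendritic cell markers summed to 42.7 to 46.6 TPM in bone marrow, 13.8 to 17.3 in blood and 6.0 to 7.83 in spleen. They summed to 1.66 to 3.04 TPM in lymph node, where Ccr9 was highest, 0 to 6.07 in lung and 0 to 1.93 in liver. Cox6a2 was at 0 in lymph node, Klk1 and Cd209d in lung, and Siglech, Cox6a2, Klk1 and Cd209d in liver. The part of plasmacytoid dendritic cells in the Ccr9 levels was not tested.

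Ccr10, the receptor for Ccl27 and Ccl28 on skin-homing T cells and plasma cells, was the scarcest receptor in lung and, after Ccr8, in blood. Bone marrow had 11.8, 10.6 and 12.7 TPM, lymph node 8.67, 7.69 and 5.80 TPM and liver 4.59, 6.15 and 5.37 TPM. Spleen had 0.55, 2.07 and 1.61 TPM, blood 1.15, 1.76 and 1.25 TPM and lung 1.21, 0.61 and 0.64 TPM, which is 8, 4 and 4 reads in lung and 5, 20 and 16 in spleen. The first 3 organs lay above the last 3 without overlap. Liver exceeded spleen by 1.45 (SE 0.25, adjusted p = 0.000449), and blood fell below bone marrow by 2.42 (SE 0.25, adjusted p = 2.25e-06), lymph node by 1.81 (SE 0.25, adjusted p = 3.11e-05) and liver by 1.42 (SE 0.25, adjusted p = 0.000309). Bone marrow against lymph node (0.61, interval 0.07 to 1.15, adjusted p = 0.111, and 1.09 with adjusted p = 0.00235 under T cell scaling), lymph node against liver (adjusted p = 0.274) and the 3 low organs among their neighbours (adjusted p of 0.228 and 0.956) did not pass. With that scaling blood exceeded lung by 0.83 (adjusted p = 0.00946). The 5 plasma cell markers summed to 157 to 173 TPM in spleen and 85.3 to 101 in bone marrow, against 19.6 to 20.5 in blood, 5.13 to 26.4 in liver, 8.84 to 11.1 in lymph node and 5.18 to 11.5 in lung. Tnfrsf17 was at 0 in spleen, lymph node, liver and lung. In spleen Jchain alone made up 130 ± 6.11 TPM of the sum. The mean of Ccr10 was 1.41 ± 0.779 TPM in spleen and 7.39 ± 1.46 TPM in lymph node. The part of plasma cells in the Ccr10 levels was not tested.

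The series sets blood Treg cells against those of 5 organs. Over the 5 contrasts, which share the blood libraries, 32 of 40 receptor tests were called, 13 higher and 19 lower in blood. Against bone marrow 6 members were called (31.8% of all genes tested), 2 higher and 4 lower (13% and 18.8%). Against spleen 6 were called (35.4% of all genes), 3 higher and 3 lower (20.1% and 15.3%). Against lymph node all 8 were called (37.4% of all genes), with Ccr1, Ccr2 and Ccr3 higher (16.4%) and the other 5 lower (21%). Against liver 6 were called (39.4% of all genes), 2 higher and 4 lower (23.3% and 16.1%). Against lung 6 were called (43.7% of all genes), with Ccr1, Ccr2 and Ccr9 higher (26.4%) and Ccr4, Ccr6 and Ccr8 lower (17.3%). Ccr1 and Ccr2 were higher in blood in all 5, as were 7.49% of all genes. T cell scaling, which put the median of all genes at 0.37 to 0.88 in these contrasts (-0.15 to 0.12 without it), gave 30 calls, 16 higher and 14 lower. The shares of all genes called rose with it, to 43.4% (bone marrow), 57% (spleen), 60% (lymph node), 66.7% (liver) and 59.6% (lung).

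**Figure D4:**
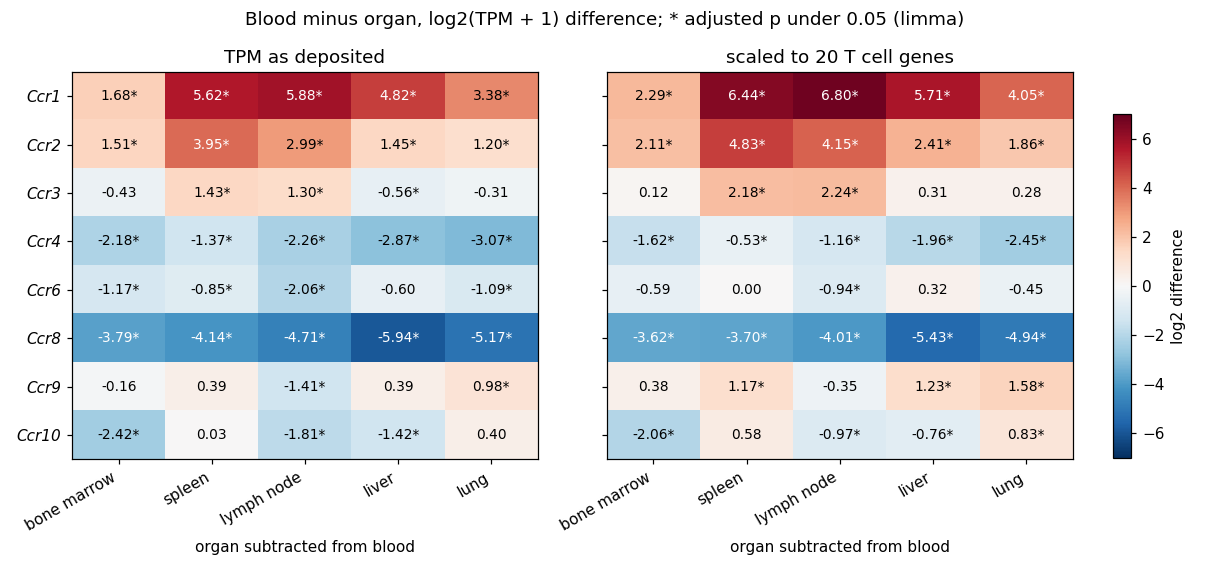
Log2(TPM + 1) difference of blood minus each organ for the 8 receptors, on TPM as deposited and after scaling to 20 T cell genes. An asterisk marks an adjusted p under 0.05 (limma). Ccr1 and Ccr2 were higher and Ccr4 and Ccr8 lower in blood in all 5 columns under both scalings, while Ccr6 against spleen went from -0.85 to 0.00.

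Among the 5 organs outside blood, 59 of 80 receptor tests were called, and 58 with T cell scaling. The share of all genes called under that scaling was not counted for these contrasts. Between spleen and lymph node 6 receptors were called and all 6 were lower in spleen (14.3% of all genes called, 4.44% higher and 9.87% lower in spleen): Ccr2, Ccr4, Ccr6, Ccr8, Ccr9 and Ccr10. With T cell scaling Ccr6 (adjusted p = 0.0511) and Ccr8 (0.38) no longer passed there. Liver exceeded spleen for 6 (31.3% called, 14% higher and 17.3% lower in liver), with Ccr6 and Ccr9 not called. Bone marrow exceeded spleen for 5 (24.1% called, 18.2% higher and 5.92% lower in bone marrow), namely Ccr1, Ccr2, Ccr3, Ccr4 and Ccr10.

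Lung differed from lymph node in all 8 (42.3% called): Ccr1, Ccr2, Ccr3, Ccr4 and Ccr8 were higher in lung (14.9%) and Ccr6, Ccr9 and Ccr10 lower (27.4%). Liver against lymph node gave 7 calls (31.1%), with the same 5 higher (9.45%), Ccr6 and Ccr9 lower (21.6%) and Ccr10 not called. Bone marrow against lymph node gave 6 (22.5%), with Ccr1, Ccr2 and Ccr3 higher in bone marrow (13.7%) and Ccr6, Ccr8 and Ccr9 lower (8.89%). With T cell scaling, Ccr6 no longer passed against lymph node in lung (adjusted p = 0.206) or bone marrow (0.367), nor Ccr8 in bone marrow (0.0971). Lung against spleen gave 6 (40.8%), of which 5 were higher in lung (18%) and Ccr9 was lower (22.8%). The Ccr9 call was lost with T cell scaling (adjusted p = 0.133), with quantile normalization (0.0759), with array weights (0.106) and in 4 of 18 fits that left out 1 library (up to 0.141). Lung against bone marrow gave 6 (43.5%), with Ccr2, Ccr4 and Ccr8 higher in lung (13.2%) and Ccr1, Ccr9 and Ccr10 lower (30.3%). That Ccr2 call was lost with T cell scaling (adjusted p = 0.0566) and in 4 of 18 fits that left out 1 library, a lung or bone marrow library each (up to 0.0737). Lung against liver gave 5 (34.9%), with Ccr1 and Ccr4 higher in lung (17.3%) and Ccr8, Ccr9 and Ccr10 lower (17.6%). Liver against bone marrow gave 4 (34.5%), with Ccr4 and Ccr8 higher in liver (9.36%) and Ccr1 and Ccr10 lower (25.1%). That Ccr10 call was lost with array weights (adjusted p = 0.0691) and with quantile normalization (0.088). T cell scaling added Ccr2 (adjusted p = 0.0249), Ccr6 (0.0173) and Ccr9 (0.00322) as lower in liver than in bone marrow.

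Across the 18 libraries, which share depth and cell makeup within an organ, Pearson's r of log2(TPM + 1) was 0.93 between Ccr4 and Ccr8, 0.84 between Ccr1 and Ccr2, 0.80 between Ccr2 and Ccr3 and -0.76 between Ccr1 and Ccr8. These values, and those below, describe the order of organs and carry no test. The genes most like Ccr1 were Chst11, a chondroitin sulfotransferase (r = 0.99), Gda, guanine deaminase (0.99), and Ifitm2, an antiviral membrane protein (0.98). Gda was at 173 TPM in blood and 0.253 TPM in lymph node. Those most like Ccr2 were Cd47, the ligand by which cells avoid phagocytosis (0.97), Rab6a (0.96) and Picalm (0.95), and those most like Ccr3 were Klf6, a transcription factor (0.97), Cxcr4, the receptor for Cxcl12 (0.96), and S100a4 (0.96). Cxcr4 was at 620 TPM in bone marrow, 577 in liver, 437 in lung, 349 in blood, 90.8 in spleen and 54.7 in lymph node.

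Nearest to Ccr4 were Ass1, argininosuccinate synthase (r = 0.98), Faah, fatty acid amide hydrolase (0.97), and Il10, a suppressive cytokine of Treg cells (0.97). Il10 had 0.260 TPM in blood and 8.17 (spleen) to 35.7 TPM (lung) elsewhere. Nearest to Ccr8 were Cish, a feedback inhibitor of cytokine signalling (0.97), with 17.2 TPM in blood and 62.1 to 107 TPM elsewhere, Ddit4 (0.97) and Lpxn (0.96). For Ccr6 they were Ascc2 (0.91), Bop1 (0.90) and Prpf31 (0.90). For Ccr9 they were Arid1a, a chromatin remodelling subunit (0.96), Slc25a5, an ADP/ATP carrier (0.93), and Apol9a (0.91), which had 22.1 TPM in lymph node and at most 2.09 TPM elsewhere. For Ccr10 they were Ckap5, a microtubule protein (0.95), Spn, the surface sialoglycoprotein CD43 (0.92), and Rfwd3 (0.92).

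The ligand side was measured in the same libraries. Of 18 CC chemokine genes, 14 passed the filter, and 13 of these were called among the 6 organs (68% of all genes, here and for the lists below). The shares of all genes called in the blood contrasts are those given above, 31.8% for bone marrow to 43.7% for lung. Against blood, 9 of the 14 were called for spleen (8 higher in blood, 1 lower), 11 for lymph node (8 and 3), 9 for liver (8 and 1), 10 for lung (9 and 1) and 7 for bone marrow (6 and 1). Their median difference was between 0.37 (bone marrow) and 1.56 (lymph node), where the median of all genes was between -0.15 and 0.12. Ccl5, a ligand of Ccr1 and Ccr3 that T cells make, was at 401.4 ± 54.8 TPM in liver, above blood in TPM but below it with T cell scaling, and lowest in lymph node with 36.5 ± 3.55. Blood had 352 ± 5.78 TPM, bone marrow 310 ± 14.7, lung 179 ± 20.9 and spleen 164 ± 6.10. Ccl6, a chemokine of myeloid cells, was at 870 ± 25.5 TPM in blood, 172 ± 7.22 in lung, 165 ± 12.3 in bone marrow. Spleen had 13.8 ± 1.25 TPM, liver 2.68 ± 0.981 and lymph node 0.857 ± 0.238. The monocyte and neutrophil markers given above were highest in blood and bone marrow, and their part in the Ccl6 level was not tested.

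All 20 genes of Gi signalling and cell movement were called among the organs. In the blood contrasts 12 (bone marrow) to 18 (lung) of 20 were called, with more higher than lower in each (7 against 5 for bone marrow, 13 against 5 for lung), where 31.8% and 43.7% of all genes were called. The median of the list was -0.02 against lymph node and between 0.05 (bone marrow) and 0.53 (lung) in the others, where that of all genes lay between -0.15 and 0.12. Rap1b, a small GTPase that switches on integrins, was at 569 ± 30.2 TPM in lung and 533 ± 12.03 in blood, against 205 ± 8.01 in spleen. Pik3cd, a lymphocyte lipid kinase, was at 252 ± 3.20 TPM in lymph node and 87.6 ± 8.64 in lung. Gnai2, the main Gi alpha subunit of lymphocytes, ranged from 495 ± 72.7 TPM in lung to 797 ± 23.2 in blood, and Rac2, a GTPase of the actin skeleton, from 480 ± 30.1 in lung to 1125 ± 91.6 in lymph node.

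Genes that switch receptors off, 6 kinases and arrestins, were all called among the organs. Blood was higher for 2 of 6 against bone marrow (13% of all genes), 3 against spleen (20.1%), 2 against lymph node (16.4%), 5 against liver (23.3%) and 6 against lung (26.4%), and lower for none. The list's median was between 0.30 (lymph node) and 1.69 (lung). Grk3, a receptor kinase, was at 34.1 ± 2.78 TPM in blood and at most 4.32 ± 0.0900 elsewhere. Arrb2, an arrestin, was at 77.6 ± 19.9 TPM in lung and 254 ± 15.1 in blood, and Grk2 at 156 ± 54.8 in lung and 473 ± 37.3 in blood. Of 5 atypical receptors 2 passed the filter: Ccrl2 was at 42.7 ± 7.34 TPM in lung and 6.38 ± 1.31 in lymph node, and Ackr1 at most 1.71 ± 0.713 TPM, in bone marrow.

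Adhesion partners of the receptors in homing, 7 genes, were all called among the organs and 6 or 7 were called in each blood contrast (31.8% to 43.7% of all genes). The list's median was between -0.85 (bone marrow) and 0.25 (spleen). Itgae, the alpha E integrin that binds E-cadherin, was lower in blood in all 5, at 6.37 ± 0.965 TPM against 104 ± 2.98 in lymph node, 49.7 ± 1.09 in bone marrow and 17.9 ± 3.13 in spleen. Itgb1, the beta 1 integrin, was at 669 ± 39.8 TPM in liver and 194 ± 0.864 in lymph node. Selplg, the selectin ligand PSGL-1, was highest in blood with 618.03 ± 25.7 TPM, and Itgb7, the integrin chain of gut homing, had 450 ± 31.5 TPM there and more in the 5 organs, an order that T cell scaling did not keep.

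Transcription factors linked to receptor expression, 9 genes, were all called among the organs. Lower in blood were 5 against bone marrow (18.8% of all genes), 3 against spleen (15.3%), 7 against lymph node (21%), 8 against liver (16.1%) and 6 against lung (17.3%), and higher were 1, 3, 2, 1 and 2. The list's median was between -1.24 (liver) and -0.22 (spleen). Maf was at 20.7 ± 0.346 TPM in blood and 83.5 (lung) to 132 TPM (liver) elsewhere. Batf, an AP-1 family member of tissue Treg cells, was at 42.8 ± 5.71 TPM in blood and 212 ± 11.7 in lung. Gata3 was at 29.5 ± 1.45 TPM in blood, 189 ± 9.09 in lung and 118 ± 6.90 in liver. All 3 were lower in blood in all 5 contrasts, as Ccr4 and Ccr8 were, though with T cell scaling the Gata3 mean in blood (48.5) lay above those in spleen (46.9) and lymph node (41.8).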

How the data were processed

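The 18 libraries (6 organs, 3 each) were grouped by the labels. Each table, as deposited by the authors, holds TPM for 55487 Ensembl gene IDs, per the file headers; STAR, RSEM and mm10 are named in the submitters' processing notes, while versions and settings are not given in the sources used here. TPM sums to a fixed total, so abundant RNA of other cells lowers every other gene. Symbols came from GENCODE M21 (55141 IDs matched).

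The 16694 genes whose mean reached 1 TPM in any organ were tested with limma 3.58.1 (R 4.3.3) on log2(TPM + 1), all libraries in 1 fit without covariates, eBayes with trend and robust, Benjamini-Hochberg adjustment over all genes tested and a call at 0.05. Fold changes are on that scale and understate changes of low genes. Intervals are 95%. Reads were approximated from the spacing of low TPM values over 12062 genes with 1 transcript, and cover counting error only.

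The members, gene lists and tests were chosen with earlier results of these data known. Named were the 8 members, per member the 3 genes of highest Pearson r (highest organ mean of at least 10 TPM, without other receptors on the list, predicted genes and antigen receptor segments), per pathway list the 2 highest means and 2 largest F, and markers that move with a member. Alternatives were other pseudocounts (0.1 and 5 TPM), filters (none and 5 TPM), T cell scaling, quantile normalization, array weights, a replicate block, plain eBayes, 2 groups per fit, and leaving out each library. Promoters are RefSeq's.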

Additional observations from a re-analysis of the deposited data

How the results depend on the processing

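All 8 receptors were called under every alternative that ran the F test over the 6 organs. With 2 groups per fit it was not run. The share of all genes called by it was 43.6% (no filter) to 79% (filter of 5 TPM), against 68% in the report. The blood contrasts gave 30 to 32 calls when 1 library was left out and 30 to 34 under the other alternatives, against 32 in the report. The share of all genes called changed too: against liver it was 39.4% in the report and 66.7% with T cell scaling. The contrasts between organs gave 51 to 60 and 54 to 60, against 59. Of the 32 blood calls, 27 held under all 28 alternatives. The 5 that did not were Ccr3 against liver, Ccr6 against bone marrow, lung and spleen, and Ccr9 against lymph node. Of these, 2 changed sign with T cell scaling. Ccr3 in blood minus liver became 0.31 (interval -0.11 to 0.72, adjusted p = 0.183) and Ccr6 in blood minus spleen 0.0019 (interval -0.61 to 0.62). Both intervals hold 0, so the calls were lost and no opposite direction was shown. The cause was not tested. Leaving out 1 library ended the Ccr3 call for 4 of 18 libraries (adjusted p up to 0.135) and the Ccr6 call against spleen for 5 (up to 0.131).

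The labels do not say whether same-numbered libraries belong together. Deviations of same-numbered libraries had a median correlation of 0.0068 (45 pairs) and those of different-numbered ones -0.0019 (90 pairs), with none over 0.1. Of the 18 libraries, 9 correlated best with their own number, out of 3 numbers. These values cannot show whether the numbers pair libraries by mouse or sort. With a replicate block the blood contrasts kept 32 calls and the organ contrasts gave 56; the calls lost were Ccr1 in liver minus spleen (adjusted p = 0.0584), Ccr4 in lung minus liver (0.0608) and Ccr9 in lung minus liver (0.055). Ccr8 in blood and Ccr10 in lung rest on fewer than 10 approximate reads per library, and Ccr10 in the first spleen library on 5. Blood was on average the most deeply sampled, with 1 read worth 0.0826 TPM for a transcript of 1 kb.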
